A study of Mus musculus with 12 samples.

Results

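The genes described here are 34 genes by which haematopoietic stem cells are commonly recognised: surface markers used to sort the cells, transcription factors that maintain them, and further genes that are high in them. They were chosen by name and not by a value measured here. Of the 34, 33 had a probe set with a gene symbol of its own, among 18193 such genes on the array. Where a gene had several probe sets, the set with the highest mean over the 12 arrays was used. In total 32 of the 33 lay above the filter on low values, among 12918 genes tested. The sulfotransferase gene Sult1a1 lay below it, and Ly6a, which encodes the sort marker Sca-1, was not analysed here.

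Haematopoietic stem cells keep the blood supplied through rare divisions in which they renew themselves or give rise to progenitors with less potential. In mouse bone marrow they lie within the lineage-negative cells that carry c-Kit and Sca-1, and they are told from the progenitors beside them by proteins such as CD150 (Slamf1), EPCR (Procr) and ESAM, and by low CD48 and CD34. The core binding factor, a pair formed by a RUNX protein and CBFB, is required for stem cells to form in the embryo, and the leukaemia fusion of CBFB with the smooth muscle myosin MYH11 interferes with it.

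RNA was measured in normal mouse bone-marrow cells that lacked lineage markers and Flt3 and carried c-Kit and Sca-1 (KSLF cells). This gate holds stem cells together with multipotent progenitors, so each value is a mean over a mixture. All 12 samples spent 24 h in culture (10% serum, SCF 50 ng/ml, IL-6 5 ng/ml) before a 4 h exposure to retrovirus and another 20 h in culture, after which cells with the green fluorescent marker of the virus were collected. The empty vector was carried by the MIB control (5 arrays, numbered 3 to 7), the CBFB-MYH11 fusion by INV16 (4 arrays), and by the ACD mutant (3 arrays) the fusion lacking the assembly competent domain, through which the myosin tail forms larger complexes and which the submitters describe as not leukaemogenic. The fusions were thus expressed from a retrovirus in cells that kept their own Cbfb, and the strain, age and sex of the mice are not given in the sources used here. The design text counts the replicates as sorts and transductions, so the spread between arrays includes both steps.

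INV16 replicate 4 stood apart and is left out of the comparisons unless stated. Of the 33 genes, 21 lay below all of the other 11 arrays there, or 63.6%, against 38.8% of all genes tested, and 7 above, or 21.2%, against 34.3%. The arrays also fell into 2 ranges of their bacterial spike-in controls: the difference of BioC and BioB was 1.07 to 1.21 log2 on 6 arrays (MIB control 3 to 5, INV16 1 to 3) and -0.11 to 0.07 on the other 6. The second range held MIB control replicates 6 and 7, all ACD mutant arrays and INV16 replicate 4, and the labels do not say what sets the ranges apart. INV16 and MIB control could therefore be compared within the first range, and the ACD mutant and MIB control within the second. Without replicate 4, INV16 and the ACD mutant shared no range, so spike-in range and group cannot be told apart from their arrays alone. A fit with the range as a block links them only through the MIB control arrays, and assumes that the range shifts every group alike. For Gapdh, the excess of 3' over 5' signal, which grows as RNA degrades or is shortened in amplification, was 1.10 to 1.98 log2 on 10 arrays, but 3.17 on ACD mutant replicate 1 and 3.64 on INV16 replicate 4. Of the defining genes of the gate, Kit was high on every array (10.26 to 11.43), and Flt3, whose protein the sort excluded, measured 7.70 to 9.76.

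**Figure D1:**
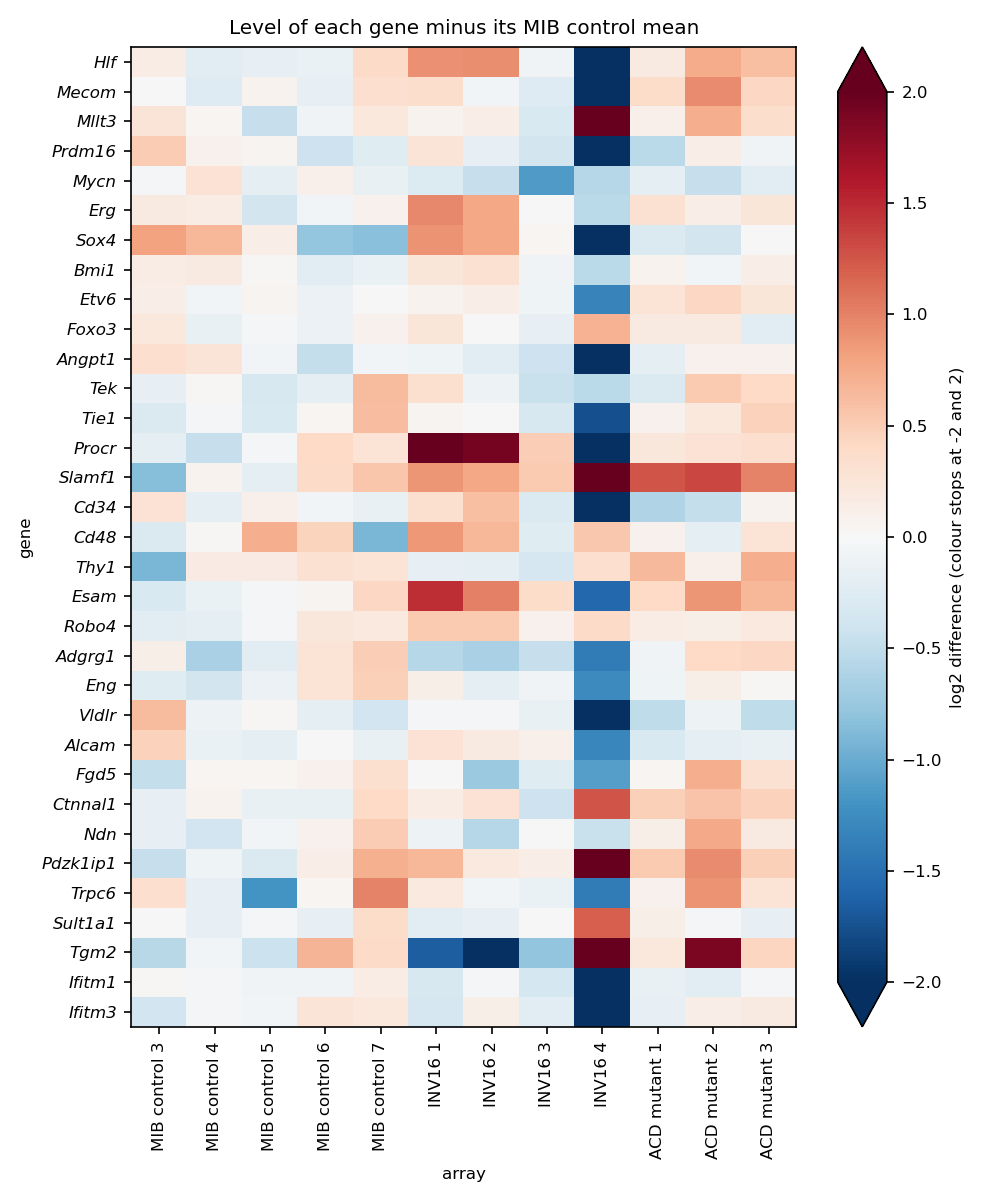
Colour map of 33 stem cell identity genes (rows) on 12 arrays (columns), each value the log2 level minus the gene's mean in the 5 MIB control arrays; colours stop at -2 and 2. INV16 replicate 4 stands out in most rows, Procr and Esam are highest in INV16 replicates 1 and 2, and Tgm2 is lowest in those arrays.

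INV16 was set against MIB control to ask what the intact fusion changes within a day of its introduction. The stem cell markers Procr and Esam rose, by 2.80-fold and 1.94-fold at an adjusted p under 0.05 in limma over all 12918 genes. No member was called lower; 10 of 32 had an unadjusted p under 0.05, or 31.2%, against 15.8% of all genes. The called genes were 2 of 32 members, 6.25%, against 1.7% of all genes called in either direction and 0.627% called higher. Of the members, 16 differed above 0, or 50%, against 43.7% of all genes, and their median difference was 0.00 log2, against -0.03 over all genes; with the spike-in range as a block 21 of 32 were above 0, against 46.7% of all genes. The median absolute difference of the members was 0.22, against 0.13 over all genes. In 3 of 32 members, 9.38%, the arrays of the groups did not overlap, against 9.26% of all genes; these were Procr, higher (3.27% of all genes), and Mycn and Tgm2, lower (5.98%). In a sorted mixture such as this, more cells of a type and more RNA per cell cannot be told apart.

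Procr encodes the endothelial protein C receptor, EPCR, a surface protein by which stem cells are enriched. Its level was 7.93, 7.65, 8.06, 8.50 and 8.38 in MIB control replicates 3 to 7 and 10.16, 10.02 and 8.59 in INV16 replicates 1 to 3. All 3 INV16 arrays lay above all 5 controls, but replicate 3 was only just above the highest of them. The mean rose from 8.11 ± 0.34 (SD, n = 5) to 9.59 ± 0.87 (SD, n = 3), a log2 difference of 1.48 (SE 0.30, adjusted p = 0.0252). Within the first spike-in range the difference was 1.71 (adjusted p = 0.102), and with the range as a block it was 1.71 (adjusted p = 0.0232). The call was lost without INV16 replicate 1 (1.20, adjusted p = 0.155), INV16 replicate 2 (1.27, adjusted p = 0.115) or MIB control replicate 5 (1.47, adjusted p = 0.0580), in the fit to only the 2 groups (adjusted p = 0.0734), and with all 12 arrays (0.16, adjusted p = 0.925).

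Esam encodes an adhesion molecule of endothelial cells, platelets and stem cells. It measured 7.87, 8.04, 8.15, 8.23 and 8.59 in MIB control and 9.65, 9.19 and 8.54 in INV16 replicates 1 to 3. Replicates 1 and 2 lay above every control, while replicate 3 fell just short of MIB control replicate 7. The difference was 0.95 log2 (SE 0.22, adjusted p = 0.0477), and 1.11 within the first spike-in range (adjusted p = 0.114). Of 21 other settings, 7 left Esam past the threshold. Among others, the call was lost without INV16 replicate 1 (0.69, adjusted p = 0.255), INV16 replicate 2 (0.92, adjusted p = 0.149), any 1 of MIB control replicates 3 to 6 (adjusted p = 0.0618 to adjusted p = 0.103) or any 1 of the ACD mutant arrays (adjusted p = 0.0633 to adjusted p = 0.0752), and with all 12 arrays (0.32, adjusted p = 0.680).

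Of the other surface genes none passed the test. Slamf1, which encodes the stem cell marker CD150, measured 5.27, 6.20, 5.95, 6.51 and 6.68 in MIB control and 7.00, 6.90 and 6.65 in INV16. It was 0.73 log2 higher (SE 0.25, 95% interval 0.19 to 1.27, adjusted p = 0.175), with the highest control array above the lowest INV16 array. Control replicates 6 and 7 lay above replicates 3 to 5 in this gene, and within the first spike-in range the difference was 1.04 (adjusted p = 0.109); with the range as a block it was called (1.04, SE 0.20, adjusted p = 0.0316), the third member called in that fit, against 1.15% of all genes. The progenitor markers Cd34 (0.22, adjusted p = 0.651) and Cd48 (0.43, adjusted p = 0.572), whose proteins are low on the most primitive cells, did not pass. Nor did the adhesion receptor Adgrg1 (-0.57, adjusted p = 0.222), the endothelial guidance receptor Robo4 (0.38, adjusted p = 0.200) or the glycoprotein Thy1 (-0.22, adjusted p = 0.710). Eng, a coreceptor for TGF-beta ligands, the lipoprotein receptor Vldlr and the adhesion molecule Alcam differed by -0.05, -0.08 and 0.19, each with an interval that held 0. With the range as a block Eng turned to 0.19. Other Vldlr sets past the filter differed by -0.54 (SE 0.17), -0.50, -0.39 and -0.03, none of them called.

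**Figure D2:**
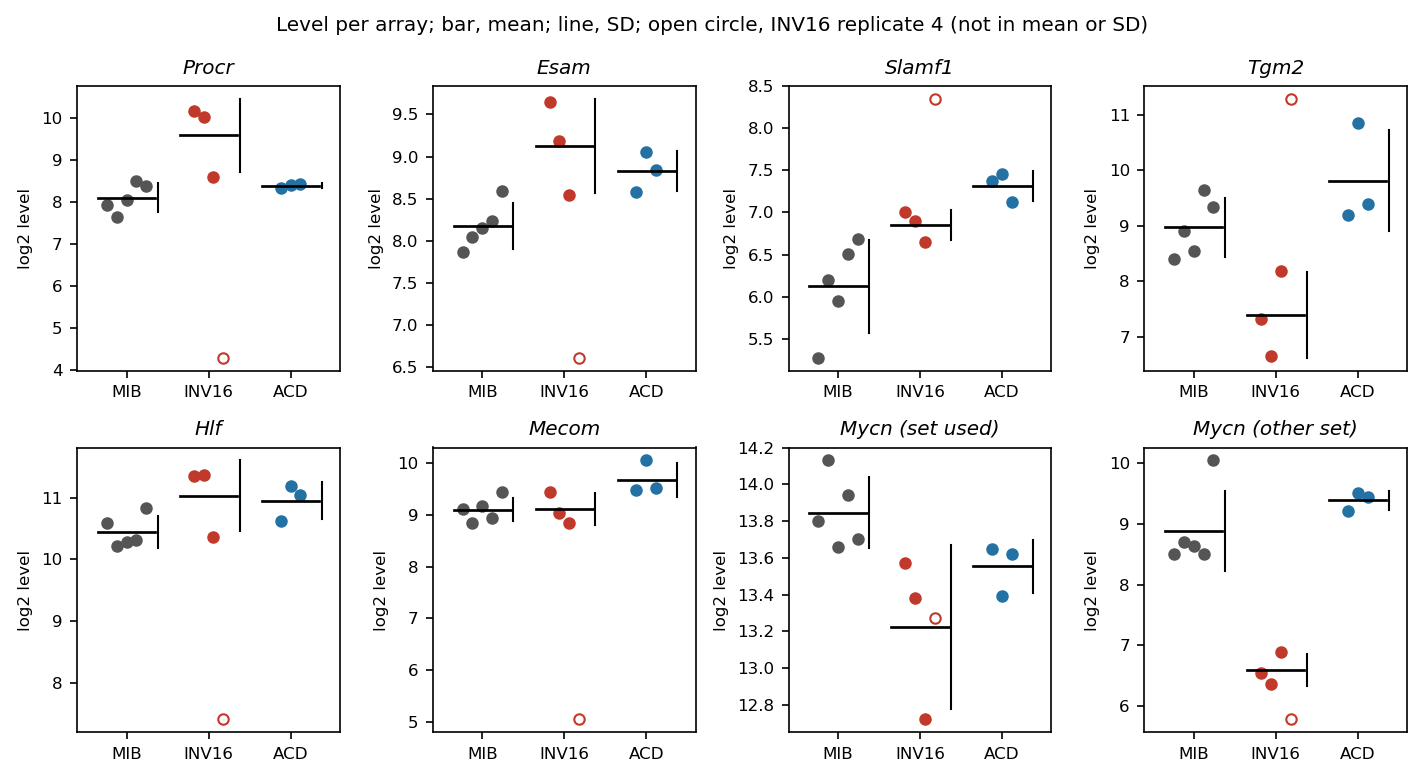
Log2 level of 7 stem cell identity genes per array, Mycn by 2 probe sets, in MIB control (grey), INV16 (red) and ACD mutant (blue); bars are means and lines SD, both without INV16 replicate 4 (open circle). INV16 replicates 1 to 3 lie above all controls for Procr, and below all controls and ACD mutant arrays for Tgm2 and for the other Mycn set.

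Among 10 transcription and chromatin genes, 7 differed above 0 and 3 below in INV16, and none passed. Hlf, a bZIP factor characteristic of stem cells, was 10.59, 10.22, 10.29, 10.31 and 10.83 in MIB control and 11.36, 11.37 and 10.37 in INV16 replicates 1 to 3. Replicates 1 and 2 lay above all controls and replicate 3 among them, and the mean difference was 0.59 (SE 0.23, adjusted p = 0.227). Without INV16 replicate 3 it was called (0.92, adjusted p = 0.0259), and with all 12 arrays it turned to -0.32 (adjusted p = 0.768). The ETS factor Erg was 0.57 log2 higher (SE 0.19, adjusted p = 0.169). Mecom, which encodes EVI1, the PR-domain factor Prdm16, the AF9 gene Mllt3, the Polycomb gene Bmi1, the ETS repressor Etv6 and the forkhead factor Foxo3 differed by -0.10 to 0.16. Sox4, an HMG-box factor, differed by 0.57 (adjusted p = 0.470) over all 5 controls and by 0.03 within the first spike-in range.

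Mycn, which encodes the growth-promoting factor N-Myc, gave different values by probe set. The set used measured 13.80, 14.13, 13.66, 13.94 and 13.70 in MIB control, 13.57, 13.38 and 12.72 in INV16 and 13.65, 13.39 and 13.62 in the ACD mutant. Its INV16 arrays lay below all controls but overlapped the mutant, with a difference from MIB control of -0.62 (SE 0.17, adjusted p = 0.101). Another Mycn set, singled out after its values were seen, measured 8.50, 8.71, 8.64, 8.50 and 10.05 in MIB control, 6.55, 6.37 and 6.89 in INV16, and 9.22, 9.52 and 9.44 in the ACD mutant. Its INV16 arrays all lay well below every other array of the 11, and MIB control replicate 7 was the highest. With each of 22694 probe sets tested alone, an analysis added later, it differed by -2.28 log2 in INV16 against MIB control (SE 0.30, adjusted p = 0.00447), where 1.39% of all probe sets were called. That call held without each of the 11 arrays in turn (-2.42 to -1.98, adjusted p = 7.41e-05 to adjusted p = 0.0363), within the first spike-in range (-2.01, adjusted p = 0.00884) and with all 12 arrays (-2.48, adjusted p = 0.0138). INV16 replicate 4, at 5.78, was lower still. The third set differed by -0.46 (adjusted p = 0.191).

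Probe sets of other transcription factors also disagreed. One further Erg set rose by 0.93 (SE 0.18, adjusted p = 0.0279) and 1 of the 5 other Sox4 sets past the filter by 0.61 (SE 0.13, adjusted p = 0.0323). Both lost the call with the spike-in range as a block (adjusted p = 0.0675 and adjusted p = 0.0777) and with all 12 arrays (adjusted p = 0.272 and adjusted p = 0.419). Without 1 array, the Erg set was called in 7 of 11 fits and the Sox4 set in 6 of 11. The second Hlf set differed by 1.20 log2, against 0.59 for the set used. In these fits Esam missed the threshold (adjusted p = 0.0589) and Procr passed it (adjusted p = 0.0313), so that 4 of 70 member probe sets were called.

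The angiopoietin ligand Angpt1 and the receptors Tek (Tie2) and Tie1, a signalling axis tied to stem cell quiescence and to blood vessels, differed by -0.24, -0.08 and -0.09 in INV16. None passed, and each interval held 0, with bounds between -0.59 and 0.44; with the spike-in range as a block Tek and Tie1 turned to 0.08 and 0.13. Angpt1 measured 11.25, 11.17, 10.86, 10.45 and 10.87 in MIB control, 10.83, 10.70 and 10.51 in INV16 and from 10.72 to 11.01 in the ACD mutant, with all groups overlapping.

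Among the signalling and cytoplasmic genes, Tgm2, a transglutaminase that crosslinks proteins, had the lowest difference of all 32 members. It measured 8.41, 8.91, 8.54, 9.65 and 9.35 in MIB control and 7.33, 6.65 and 8.19 in INV16, whose arrays all lay below the controls. The difference was -1.58 log2, or 2.99-fold lower (SE 0.41, 95% interval -2.47 to -0.70), and did not pass (adjusted p = 0.0795). It was -1.23 within the first spike-in range (adjusted p = 0.174), and it passed without INV16 replicate 3 (-1.98, adjusted p = 0.0369) or ACD mutant replicate 2 (-1.58, adjusted p = 0.0426). The exchange factor Fgd5 (-0.32), the catenin relative Ctnnal1 (0.01), the growth suppressor Ndn (-0.23), the small membrane protein Pdzk1ip1 (0.33) and the cation channel Trpc6 (0.00) did not pass. Among the interferon-induced membrane proteins, Ifitm1 differed by -0.24 and Ifitm3 by -0.14 (adjusted p = 0.282 and adjusted p = 0.708). These genes are close relatives in sequence, so it is uncertain how well the probe sets tell them apart.

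The 3 INV16 arrays were not alike in these genes. In 26 of 32 members replicate 3 was the lowest of the 3, or 81.2%, against 37.9% of all genes. Relative to the MIB control mean, the median member lay at 0.21 in replicate 1, 0.06 in replicate 2 and -0.19 in replicate 3, while the median of all genes was -0.03 in each. Without replicate 3, 5 members were called higher or lower (Procr, Esam, Hlf, Erg and Tgm2), against 1.99% of all genes in that fit. Without replicate 1 or replicate 2 no member was called, where 0.224% and 0.511% of all genes were.

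The marker lists of other cell types were read on the same arrays. The summed level of lymphoid markers was 11.92, 11.87 and 10.10 log2 in INV16 replicates 1 to 3, against 9.63 to 10.62 in MIB control. Of 5 tested, 1 was called: Dntt, a lymphoid DNA polymerase, at 11.09, 10.81 and 7.75 against 6.08 to 7.21, rose by 3.04 log2 (SE 0.59, adjusted p = 0.0227), a call not made with all 12 arrays or with the spike-in range as a block (adjusted p = 0.0642). All 5 tested differed above 0, with a median of 0.38 log2. Satb1 measured 9.75, 9.76 and 8.58 in INV16, against 7.51 to 9.18 in MIB control. Flt3 measured 9.25, 9.76 and 8.03, against 8.34 to 9.34. The B cell gene Cd79a differed by 0.14 and the T cell gene Cd3e by 0.04, and Ebf1, Cd3g, Il7r and Rag1 lay below the filter. Endothelial markers, none of 11 called in limma, lay at 11.04, 10.98 and 10.31 against 10.06 to 10.56, led by Egfl7 (10.54, 10.49 and 9.32 against 8.99 to 9.68); Cdh5, which defines endothelium, lay below the filter, at 4.33 to 4.75 on all arrays. Granulocyte precursor markers summed to 14.81 to 15.30 in INV16 replicates 1 to 3 and 14.90 to 15.73 in MIB control. Of 9 tested, 1 differed above 0, with a median of -0.50 log2, and 1 was called. This was S100a8, a calcium-binding protein of neutrophils, at 5.03, 5.30 and 5.48 in INV16 against 6.97 to 10.28 in MIB control, with no overlap. It fell by 3.08 log2 (SE 0.55, adjusted p = 0.0144), and with the range as a block it was called too (-2.77, adjusted p = 0.0498). Its partner S100a9 differed by -2.20 (adjusted p = 0.0623). Of 4 stromal markers, 3 differed above 0, with a median of 0.12 log2, and 1 was called. This was the PDGF receptor Pdgfrb, which fell by 1.10 log2 (SE 0.19, adjusted p = 0.0132). Neither S100a8 nor Pdgfrb was called with all 12 arrays. The part of these lists in the differences of the stem cell genes was not tested.

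**Figure D3:**
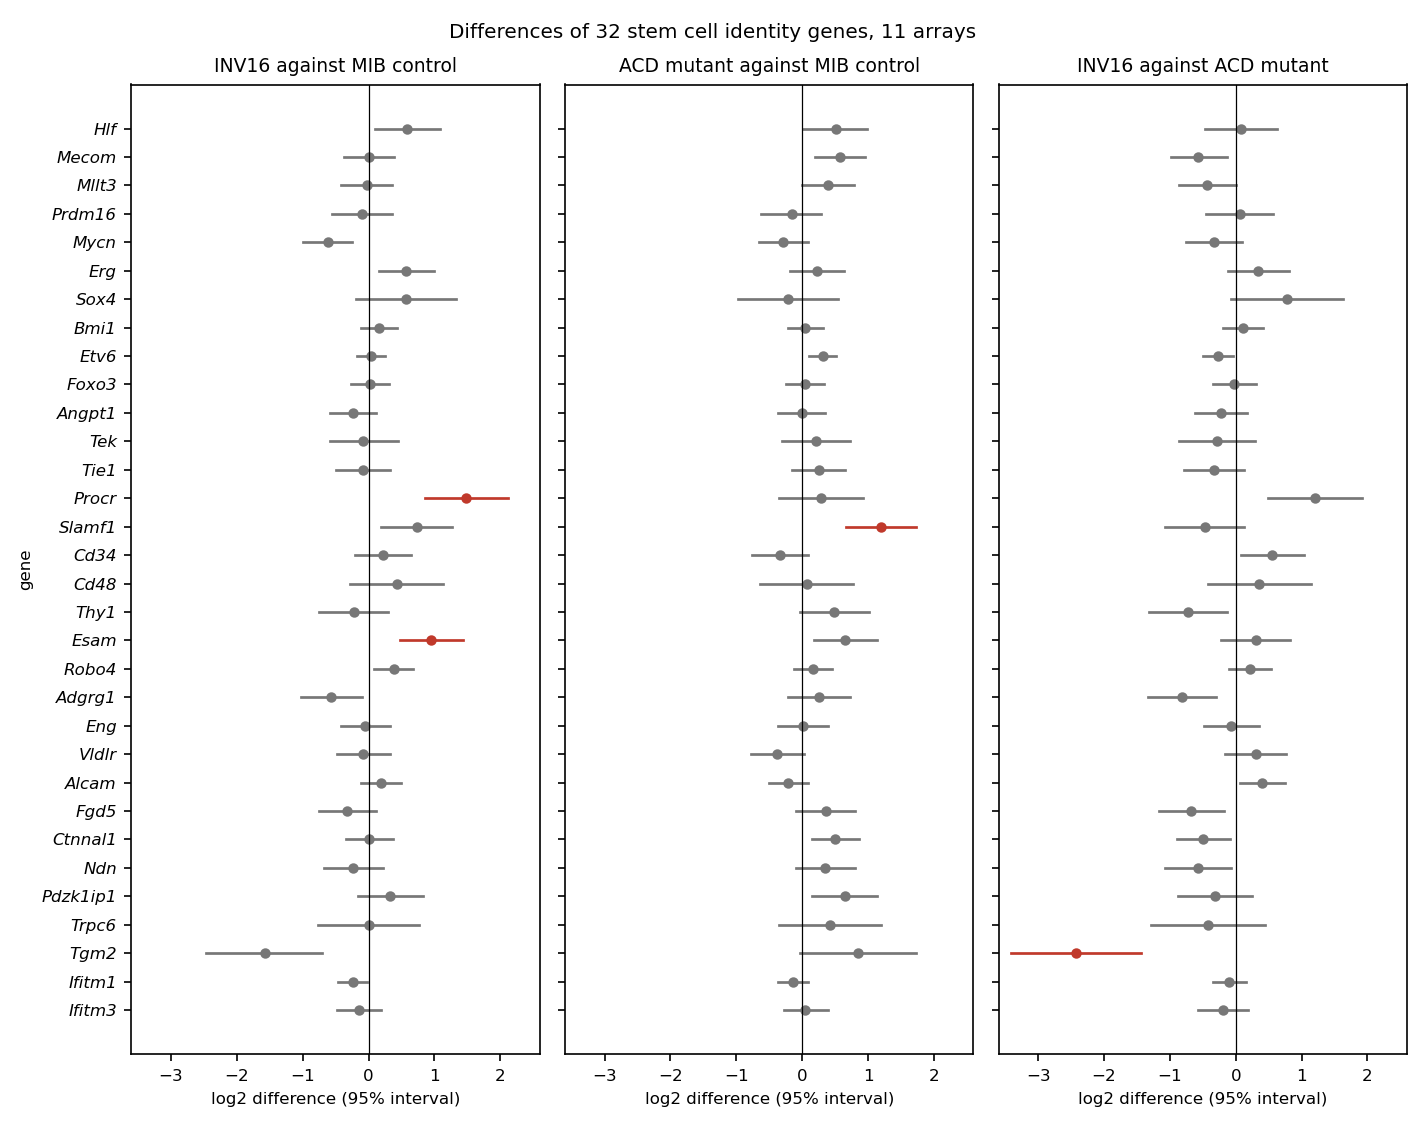
Log2 differences of 32 stem cell identity genes in 3 comparisons of the 11 arrays, with 95% intervals from limma; red marks an adjusted p under 0.05 over 12918 genes. Red marks Procr and Esam on the left, Slamf1 in the middle and Tgm2 on the right.

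For the members called higher, the 250 bases before the start of the gene were read from RefSeq (GRCm38.p6), where the table held them, and searched for the RUNX core, the sequence that core binding factor recognises, and for the cores of other blood cell factors. Windows were found for 29 of the 34 genes, Procr and Slamf1 among them, and not for Esam or Tgm2. Cd48 is added as the 1 member with a match to the RUNX core motif. Capitals mark matches, on either strand, to the RUNX core (TGTGGT or TGCGGT), an ETS core (CCGGAA or CAGGAA) or a GATA core (AGATAA or TGATAA), which do not overlap in these windows.
Procr (chr2:155750967-155751216, + strand): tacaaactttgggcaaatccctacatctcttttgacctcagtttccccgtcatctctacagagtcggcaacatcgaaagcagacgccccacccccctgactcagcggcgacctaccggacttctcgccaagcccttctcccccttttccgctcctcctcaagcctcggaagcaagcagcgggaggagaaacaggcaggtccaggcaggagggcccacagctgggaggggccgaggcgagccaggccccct
Slamf1 (chr1:171766882-171767131, + strand): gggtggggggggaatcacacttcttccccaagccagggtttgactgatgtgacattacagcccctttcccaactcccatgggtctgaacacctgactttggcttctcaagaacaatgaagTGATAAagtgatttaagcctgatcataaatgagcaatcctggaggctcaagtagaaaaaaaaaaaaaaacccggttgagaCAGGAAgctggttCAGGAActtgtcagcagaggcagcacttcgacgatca
Cd48 (chr1:171681742-171681991, + strand): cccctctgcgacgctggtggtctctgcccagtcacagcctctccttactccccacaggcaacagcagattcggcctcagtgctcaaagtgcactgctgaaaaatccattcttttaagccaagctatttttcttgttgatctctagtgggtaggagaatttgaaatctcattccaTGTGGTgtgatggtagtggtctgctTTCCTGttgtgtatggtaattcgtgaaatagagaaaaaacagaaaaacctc

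The Procr window held none of these motifs. In Slamf1 the GATA match (TGATAA) began 130 bases before the start and the ETS matches (CAGGAA) 50 and 37 bases before it. In Cd48 the RUNX match (TGTGGT) began 76 bases and the ETS match, on the other strand, 51 bases before the start. The RUNX core was found in 1 of 29 members, 3.45%, and in 20.9% of the 27025 genes with a window. The ETS core was found in 14 members, 48.3%, against 38.2% of all, and the GATA core in 4 members, 13.8%, against 18.8%. These are matches of letters in one short window per start site and say nothing of binding.

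The ACD mutant was set against MIB control to ask what the fusion does without its assembly domain. Slamf1 rose 2.29-fold and was the only member called, 1 of 32 or 3.12%, against 1.7% of all genes in either direction and 0.991% called higher; 0.712% of all genes and no member were called lower. Of the 32, 24 differed above 0, or 75%, against 51.4% of all genes, and their median was 0.24 log2, against 0.01. In 5 members, 15.6%, the arrays of the groups did not overlap, against 12.8% of all genes: Slamf1, Mecom, Etv6 and Ctnnal1 were higher (6.93% of all genes) and Mycn lower (5.84%). With the spike-in range as a block, 19 of 32 members differed above 0, against 49.6% of all genes, with a median of 0.16 log2 against 0.00, and none was called, against 0.155% of all genes.

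Slamf1 measured 7.38, 7.46 and 7.12 in the ACD mutant, against 5.27, 6.20, 5.95, 6.51 and 6.68 in MIB control. All 3 mutant arrays lay above all 5 controls, by the most over replicate 3, which was the lowest. The mean rose from 6.12 ± 0.55 (SD, n = 5) to 7.32 ± 0.18 (SD, n = 3), a log2 difference of 1.20 (SE 0.25, adjusted p = 0.0378). Within the second spike-in range, against MIB control replicates 6 and 7 alone, it was 0.72 (adjusted p = 0.0590). With the range as a block it was the same (adjusted p = 0.153), and in the fit to only the 2 groups it missed the threshold (adjusted p = 0.0673). The call was also lost without ACD mutant replicate 1 (1.16, adjusted p = 0.180), ACD mutant replicate 2 (1.13, adjusted p = 0.189), MIB control replicate 4 (adjusted p = 0.0507) or replicate 5 (adjusted p = 0.0830), INV16 replicate 1 (adjusted p = 0.0548), and with all 12 arrays (1.20, adjusted p = 0.509). Another Slamf1 set past the filter differed by 0.74, and that set by 0.31 in INV16.

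Several further stem cell genes were higher in the ACD mutant without passing the test. Mecom measured 9.11, 8.85, 9.17, 8.94 and 9.44 in MIB control and 9.47, 10.05 and 9.51 in the ACD mutant (0.58, SE 0.18, adjusted p = 0.101). Every mutant array exceeded every control, the lowest only just above MIB control replicate 7. In INV16 it measured 9.45, 9.04 and 8.84, about the span of the controls. A second Mecom set past the filter, with means of 5.36 to 5.41, differed by -0.04. Esam was 8.58, 9.06 and 8.84 (0.65, SE 0.22, adjusted p = 0.122), with the lowest mutant array just under MIB control replicate 7. Hlf was 10.62, 11.19 and 11.05 (0.51, adjusted p = 0.238). Etv6 differed by 0.31 (adjusted p = 0.105) and Ctnnal1 by 0.50 (adjusted p = 0.119).

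All 6 tested signalling and cytoplasmic genes differed above 0 in the ACD mutant, by 0.35 to 0.85, and none passed; with the spike-in range as a block Trpc6 turned to -0.10. Pdzk1ip1 measured 8.18, 8.55, 8.35, 8.77 and 9.36 in MIB control, 9.31, 8.83 and 8.78 in INV16 and 9.17, 9.58 and 9.12 in the ACD mutant. The difference was 0.65 (SE 0.23, adjusted p = 0.140), and 0.23 within the second spike-in range, where MIB control replicate 7 lay within the mutant arrays. Without that replicate 4 members were called higher, where 4.58% of all genes were called: Slamf1, Mecom (0.66, adjusted p = 0.0488), Ctnnal1 and Pdzk1ip1 (0.83, adjusted p = 0.0266). Tgm2 was 9.19, 10.86 and 9.40 in the ACD mutant (0.85, SE 0.41, adjusted p = 0.280), its highest value in replicate 2. Within the second range Tgm2 differed by 0.32. In 17 of 32 members replicate 2 was the highest of the 3 mutant arrays, 53.1%, against 32.8% of all genes.

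The members below 0 in the ACD mutant included Cd34 (-0.34, adjusted p = 0.387), Vldlr (-0.38, adjusted p = 0.300), Mycn (-0.29, adjusted p = 0.399), Alcam and Sox4 (each -0.21), Prdm16 (-0.16) and Ifitm1 (-0.14). With the spike-in range as a block Sox4 turned to 0.59 and Prdm16 to 0.16. The other Mycn set differed by 0.51 here (adjusted p = 0.375). Tek and Tie1 differed by 0.21 and 0.25 and their ligand Angpt1 by -0.01, which with the block became -0.02, -0.07 and 0.25. Cd48, Eng, Foxo3, Bmi1 and Ifitm3 differed by 0.01 to 0.07, of which Eng and Ifitm3 turned with the block, to -0.35 and -0.18. Among the rest, Procr (0.29), Mllt3 (0.39), Thy1 (0.49), Erg (0.23), Adgrg1 (0.25) and Robo4 (0.16) were above 0 without passing. Of these Procr (-0.05), Adgrg1 (-0.13) and Robo4 (-0.05) lay below 0 with the block. The Sox4 sets disagreed here, with 2 of the other 5 at 0.51 and 0.78 and none called. The second Eng set differed by 0.63, and the other Prdm16 sets past the filter by 0.33, 0.13 and -0.07, none called.

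Among markers of other cell types, none of the megakaryocyte and erythroid list was called in limma. All 7 tested differed above 0, against 51.4% of all genes, with a median of 0.82. Of the 7, 4 had an unadjusted p under 0.05, against 19.5% of all genes. Their summed level was 12.28 to 12.61 log2, against 10.88 to 13.03 in MIB control and 11.11 to 11.14 in INV16 replicates 1 to 3. The mutant arrays thus lay inside the range of the controls, whose highest was replicate 7. Pf4, a megakaryocyte marker of this list, measured 10.88, 11.47 and 10.86 in the ACD mutant, 12.10 in MIB control replicate 7 and 9.25 to 9.93 in the other controls. The red-cell gene Hba-a1 lay below the filter on average, at 3.96 to 4.57 on all arrays. Mast cell and basophil markers summed to 12.77 to 13.00, against 11.78 to 12.94 in MIB control. Of 9 tested, 6 differed above 0, with a median of 0.04, and 1 was called. Hdc, which makes histamine, rose by 1.56 (SE 0.23, adjusted p = 0.0150), a call not made with all 12 arrays or with the spike-in range as a block (adjusted p = 0.0695). Of the 9, 5 had an unadjusted p under 0.05 in limma, against 19.5% of all genes. The IgE receptor subunit Ms4a2 measured 10.61, 10.44 and 10.11 in the ACD mutant, against 7.76 to 10.34 in MIB control. The carboxypeptidase Cpa3 measured 11.38, 11.09 and 11.05 in the mutant, the lowest only just above the highest control. With the spike-in range as a block Ms4a2 and Cpa3 differed by 1.05 and 0.88 (adjusted p = 0.295 and adjusted p = 0.236). The IgE receptor gene Fcer1a differed by -0.71 and the basophil protease Mcpt8 by -0.35. The part of these markers in the differences of the stem cell genes was not tested.

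**Figure D4:**
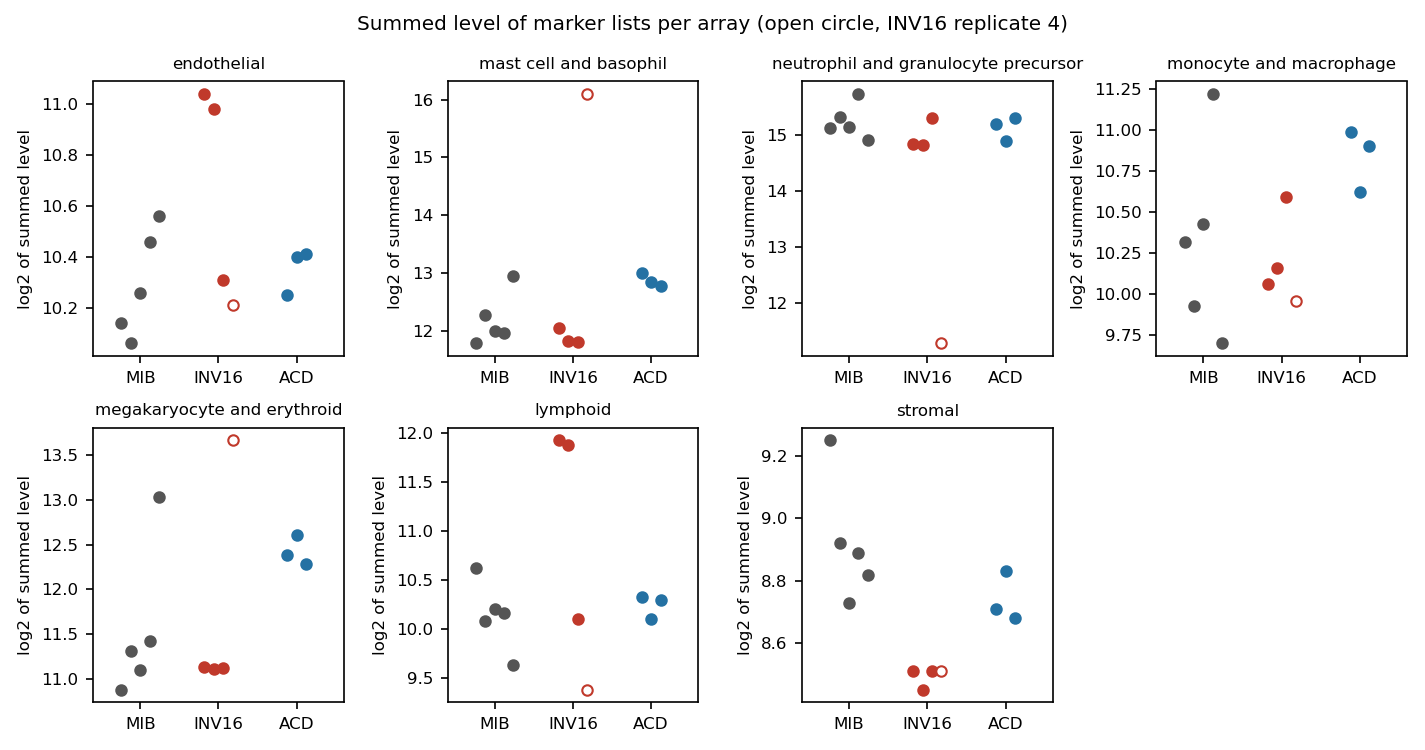
Log2 of the summed level of 7 lists of cell type markers per array in MIB control (grey), INV16 (red) and ACD mutant (blue), with INV16 replicate 4 as an open circle. Endothelial and lymphoid lists are highest in INV16 replicates 1 and 2, the megakaryocyte and erythroid list is high in the ACD mutant, MIB control replicate 7 and INV16 replicate 4, and the mast cell list is highest in INV16 replicate 4.

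The control arrays themselves differed in these genes by spike-in range. In 13 of 32 members MIB control replicates 6 and 7 both lay above replicates 3 to 5, or 40.6%, against 22% of all genes, and in 4, or 12.5%, both lay below, against 17%. By the set used, Sox4 differed the most, at 11.60, 11.47, 10.94, 10.03 and 9.97 in replicates 3 to 7, with replicates 6 and 7 at a mean difference of -1.34 log2. Its other sets past the filter went both ways. In replicates 6 and 7 against 3 to 5 their means were 10.14 against 9.36, 9.64 against 8.80 and 5.94 against 5.47. The rest were 6.20 against 6.51 and 6.31 against 6.59. Among the genes called in a comparison, Slamf1 was 0.79 higher in replicates 6 and 7, Procr 0.56, Esam 0.39 and Tgm2 0.88. For Procr, Esam and Slamf1 in INV16 the difference within the first range is thus larger than over all controls. For Slamf1 in the ACD mutant the difference within the second range is smaller. Not all risers followed this: Sox4 in INV16 went from 0.57 over all controls to 0.03, and Etv6 in the ACD mutant from 0.31 to 0.37.

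**Figure D5:**
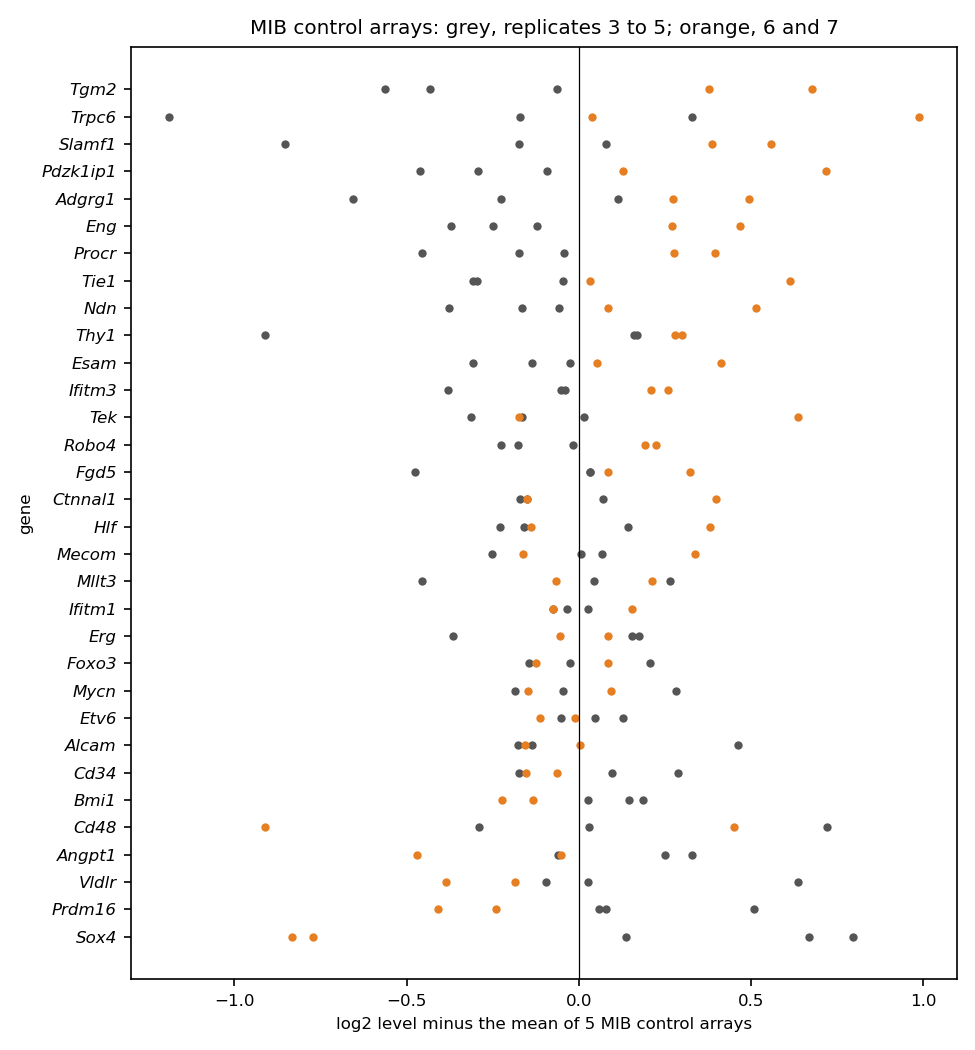
Log2 level of 32 stem cell identity genes in the 5 MIB control arrays, each minus the gene's mean, with replicates 3 to 5 in grey and 6 and 7 in orange. The orange points lie to the right in Tgm2, Slamf1, Pdzk1ip1 and Procr, and to the left in Sox4, Prdm16 and Vldlr.

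INV16 was set against the ACD mutant to ask which differences go with the assembly domain. Tgm2 was 5.39-fold lower in INV16 and was the only member called, 1 of 32 or 3.12%, against 2.07% of all genes in either direction and 1.76% called lower. Its INV16 arrays (7.33, 6.65 and 8.19) all lay below its ACD mutant arrays (9.19, 10.86 and 9.40), with a log2 difference of -2.43 (SE 0.46, 95% interval -3.42 to -1.44, adjusted p = 0.0202). Another pair of Tgm2 sets differed by -2.55 and -2.50 (adjusted p = 0.0264 and adjusted p = 0.0363 with each probe set tested alone, where 1.27% of all were called), and the remaining pair past the filter by -1.40 and -0.11. The call was lost without INV16 replicate 1 (-2.40, adjusted p = 0.0743), INV16 replicate 2 (-2.06, adjusted p = 0.0894) or ACD mutant replicate 2 (-1.91, adjusted p = 0.0899), with the spike-in range as a block (-1.55, adjusted p = 0.378) and with all 12 arrays (-1.45, adjusted p = 0.508).

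In 13 of 32 members, 40.6%, the INV16 and ACD mutant arrays did not overlap, against 28.6% of all genes. Of these 10 were lower in INV16, 31.2%, against 19.2% of all genes, and 3 higher, 9.38%, against 9.44%. In 12 of 32, 37.5%, the difference was above 0, against 45.7% of all genes. The median member differed by -0.21, against -0.02 over all genes, and by -0.05 with the spike-in range as a block, where 14 of 32 were above 0, against 49.1% of all genes, and no gene was called. The other Mycn set differed by -2.79 (SE 0.33, adjusted p = 0.00349), a call that held without each array in turn and with all 12 arrays (adjusted p = 0.00954), but not with the range as a block (-2.13, adjusted p = 0.215).

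Procr was 1.20 log2 higher in INV16 than in the ACD mutant (SE 0.33, adjusted p = 0.0766), where it measured 8.33, 8.40 and 8.44. The mutant arrays were close together, and all INV16 arrays lay above them. Without INV16 replicate 3 the difference was 1.70 and passed (adjusted p = 0.00269), and with all 12 arrays it turned to -0.13 (adjusted p = 0.960). Adgrg1 measured 11.02, 10.25, 10.68, 11.18 and 11.40 in MIB control, 10.33, 10.25 and 10.44 in INV16 and 10.84, 11.31 and 11.32 in the ACD mutant. It was lower in INV16 than in the mutant on every array (-0.82, SE 0.24, adjusted p = 0.0906). Thy1 was 5.34, 6.41, 6.42, 6.55 and 6.53 in MIB control, 6.08, 6.07 and 5.92 in INV16 and 6.90, 6.35 and 6.98 in the mutant (-0.72, SE 0.27, adjusted p = 0.176). Both were called in the fit to only the 2 groups (adjusted p = 0.0170 and adjusted p = 0.0366), where 6.5% of all genes were called, but with the spike-in range as a block they differed by -0.18 and -0.23 (adjusted p = 0.847 and adjusted p = 0.858).

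The exchange factor Fgd5, a stem cell reporter gene, measured 7.00, 7.51, 7.51, 7.56 and 7.80 in MIB control, 7.49, 6.73 and 7.24 in INV16 and 7.52, 8.20 and 7.78 in the ACD mutant (-0.68, SE 0.23, adjusted p = 0.132 for INV16 against the mutant). Its INV16 arrays were the lower ones, just below the lowest mutant array. Sox4 measured 11.70, 11.57 and 10.84 in INV16 and 10.52, 10.44 and 10.81 in the mutant, a difference of 0.78 (SE 0.39, adjusted p = 0.306). It turned to -0.56 with the spike-in range as a block and to -1.19 with all 12 arrays. The other Sox4 sets past the filter disagreed, at -0.23, -0.44, 0.41, 0.52 and 0.46. Mecom (-0.57), Ndn (-0.58), Ctnnal1 (-0.50), Slamf1 (-0.47), Tie1 (-0.33) and Etv6 (-0.27) were also lower in every INV16 array than in every mutant array, and Alcam (0.40) higher, none of them passing. With the spike-in range as a block Slamf1 and Tie1 turned to 0.32 and 0.20.

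Markers of other cell types differed here too. None of the 7 megakaryocyte and erythroid genes lay above 0, against 45.7% of all genes, with a median of -1.01. All 7 had an unadjusted p under 0.05 in limma, against 19% of all genes, and none was called. Pf4 differed by -1.81 (adjusted p = 0.0936). Of 11 endothelial genes 8 lay above 0, with a median of 0.20, and of 9 mast cell genes 3, with a median of -0.07. In the endothelial list Vwf, the von Willebrand factor of platelets and endothelium, was called lower in INV16 (-2.23, adjusted p = 0.0485). In the mast cell list the IgE receptor subunit Ms4a2 (-2.01, adjusted p = 0.0418) and the carboxypeptidase Cpa3 (-1.45, adjusted p = 0.0379) were called lower. No call was made on Vwf, Ms4a2 or Cpa3 with all 12 arrays or with the spike-in range as a block. The part of these lists in the differences of the stem cell genes was not tested.

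In INV16 replicate 4 the stem cell genes were split. Of the 32 tested, 21 lay below all other arrays, or 65.6%, against 38.8% of all genes, and 6 above, or 18.8%, against 34.3%. In 13 members the array lay over 2 log2 from the median of the others, 40.6%, against 9.7% of all genes. Mast cell markers summed to 16.10 log2 there, against 11.78 to 13.00 elsewhere, and granulocyte precursor markers to 11.27, against 14.81 to 15.73. Immediate early genes, which respond within minutes to many stimuli, summed to 14.84, against 10.67 to 11.36 elsewhere. The part of these genes in its values was not tested.

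Sox4 was the furthest below, at 3.51 against 9.97 to 11.70 on the other 11 arrays. Vldlr measured 3.76 there, against 11.59, 10.86, 10.98, 10.77 and 10.57 in MIB control, 10.92, 10.92 and 10.80 in the other INV16 arrays and 10.44, 10.85 and 10.44 in the ACD mutant. The other arrays of Vldlr were close together, and none came near this one. Ifitm1 was 6.95, against 13.74, 13.68, 13.64, 13.64 and 13.87 in MIB control, 13.39, 13.67 and 13.36 in INV16 and 13.56, 13.50 and 13.67 in the ACD mutant. Ifitm3 was 9.71, against 12.48, 12.82, 12.81, 13.12 and 13.07 in MIB control, 12.52, 12.98 and 12.65 in INV16 and 12.70, 13.00 and 13.04 in the ACD mutant. Both Ifitm genes were even across the 11 arrays. Angpt1 was 4.89 there, Procr 4.28 and Mecom 5.05, each below the 5.10 log2 at which the filter was set. The second Mecom set past the filter went the other way, at 6.27 against 5.13 to 5.72.

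Cd34 measured 7.39 on that array, against 12.04, 11.58, 11.85, 11.69 and 11.60 in MIB control, 12.08, 12.35 and 11.47 in the other INV16 arrays and 11.15, 11.27 and 11.82 in the ACD mutant. Prdm16 was 4.08, against 8.12, 7.69, 7.67, 7.20 and 7.37 in MIB control, 7.86, 7.44 and 7.24 in INV16 and 7.07, 7.74 and 7.54 in the ACD mutant. Its other sets past the filter disagreed on that array: 5.64 lay below all other arrays, 5.57 within them and 6.21 above them (5.79 to 6.09). Hlf was 7.40, against 10.22 to 11.37 over the 11.

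The genes that lay above were others. Pdzk1ip1 measured 13.06 against 8.18 to 9.58, and Tgm2 11.29 against 6.65 to 10.86. Mllt3 was 10.61, against 8.19, 7.97, 7.47, 7.86 and 8.14 in MIB control, 7.62 to 8.06 in INV16 and 8.02, 8.65 and 8.27 in the ACD mutant. The CD150 gene Slamf1 was 8.35 against 5.27 to 7.46, Ctnnal1 8.57 against 6.91 to 7.89, and Foxo3 9.65 against 8.72 to 9.19. By the sets used, Mycn, Cd48, Thy1, Robo4 and Ndn lay within the range of the other arrays. The other Ndn sets past the filter measured 3.65, 3.63, 3.64 and 3.82 on INV16 replicate 4, each below all other arrays. So did the other Mycn set, at 5.78 there. With all 12 arrays none of the 32 members was called in any comparison (20, 0 and 5 of all genes called, or 0.155%, 0% and 0.0387%), and 4, 1 and 3 members had an unadjusted p under 0.05, against 15.1%, 6.91% and 12.4% of all genes.

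Of 30 further genes in a list drawn from general knowledge, among them the factors Gata2, Tal1 and Meis1 and several Hox genes, 26 were tested. In limma none was called in either comparison with MIB control. There 8 and 4 of the 26 had an unadjusted p under 0.05, against 15.8% and 19.5% of all genes. In INV16 against the ACD mutant 1 of the 26 was called lower, against 1.76% of all genes. This was Cdkn1c, the cell cycle inhibitor p57, by -0.95 log2 (SE 0.21, adjusted p = 0.0397). That call was not made with all 12 arrays or with the spike-in range as a block. In INV16 against MIB control the largest differences were 1.24 for the chromatin protein Hmga2 (adjusted p = 0.0541), 0.83 for the repressor Gfi1 (adjusted p = 0.104) and -0.71 for Gata2 (adjusted p = 0.0941). In the ACD mutant they were 0.81 for the platelet protein Mmrn1 (adjusted p = 0.0568), 0.55 for Cdkn1c and 0.54 for the immediate early factor Egr1, none passing. The median of the list was 0.01 and 0.16 in these comparisons, against -0.03 and 0.01 over all genes, and -0.14 in INV16 against the ACD mutant, against -0.02.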

How the data were processed

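The values are log2 expression levels of 45101 probe sets of an Affymetrix mouse array on 12 arrays, as the authors deposited them. Labelling used 2 cycles of cDNA amplification, per the labels' protocols; background correction, normalisation and summarisation are not given in the sources used here. The values run from 2.82 to 14.97, with array medians of 5.62 to 5.79. Of the probe sets, 34958 name 1 gene symbol in GEO's platform annotation, 932 several and 9211 none; only the first kind was used, without control probe sets, and the set with the highest mean stood for its gene. Genes whose mean lay above the 40th percentile of probe sets (5.10) were tested, 12918 in all.

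Differences were fitted with limma 3.58.1 in R 4.3.3 (lmFit and eBayes, two-sided) on 11 arrays, as 3 group means without INV16 replicate 4. P-values were adjusted by Benjamini-Hochberg over all genes tested. The script was tested on simulated data. Intervals are 95% and unadjusted. The small number of arrays limits the precision, and levels are not compared between probe sets. Alternatives were all 12 arrays, quantile normalisation, other filters, the 2 groups alone, the replicate number or the spike-in range as a block, fits within a range, the mean of probe sets, trend and robust eBayes, leaving out each array, and, added after the data were seen, each probe set tested alone.

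The genes, the lists and the split by spike-in control were chosen with earlier results of these data known, so no test over a list was made. Values of every array are given for genes called in any comparison, for the 6 largest differences in each, and for genes in which INV16 replicate 4 lay over 2 log2 from the median of the other arrays. Of the other lists, called genes or else the 3 largest differences are named, or for cell types the summed level and leading genes. Gata2 stands in both the mast cell and the regulator list. Stromal, monocyte and immediate early lists were measured as well: summed levels in MIB control, INV16 replicates 1 to 3 and the ACD mutant were 8.73 to 9.25, 8.45 to 8.51 and 8.68 to 8.83 for stromal genes, 9.70 to 11.22, 10.06 to 10.59 and 10.62 to 10.99 for monocyte genes, and 10.87 to 11.12, 10.67 to 11.36 and 10.95 to 11.13 for immediate early genes; INV16 replicate 4 stood at 14.84 in the last.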

Additional observations from a re-analysis of the deposited data

Results flagged for a closer look

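Within each group of 4 or 5 arrays, an array was singled out where its gap to the nearest other array was large against the group's range (Dixon's criterion). Of 66 sets of values examined (33 genes in INV16 and in MIB control), 14 held such an array, and chance gives about 5% of them. The same count over all genes was not made, so an excess over 5% says nothing particular about these genes. In 12 cases the array was INV16 replicate 4, by the probe set used for each gene. That array was already set apart, and it lay outside the other 11 arrays in 84.8% of the 33 genes and 73% of all genes tested. It lay below the other INV16 arrays in Sox4 (3.51, against 10.84 to 11.70), Vldlr (3.76, against 10.80 to 10.92), Ifitm1 (6.95, against 13.36 to 13.67), Angpt1 (4.89, against 10.51 to 10.83), Mecom (5.05, against 8.84 to 9.45), Prdm16 (4.08, against 7.24 to 7.86), Ifitm3 (9.71, against 12.52 to 12.98), Etv6 (10.02, against 11.27 to 11.48) and Alcam (6.14, against 7.54 to 7.74). It lay above them in Pdzk1ip1 (13.06, against 8.78 to 9.31), Mllt3 (10.61, against 7.62 to 8.06) and Sult1a1 (5.84, against 4.42 to 4.65).

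In MIB control 2 of 33 sets held such an array, near the 5% or so that chance gives. Replicate 3 was singled out in Thy1, at 5.34 against 6.41 to 6.55, and in Alcam, at 7.91 against 7.27 to 7.45.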

How the results depend on the processing

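The calls rest on few arrays. With all 12 arrays the members called were 0, 0 and 0 in INV16 against MIB control, the ACD mutant against MIB control and INV16 against the ACD mutant (20, 0 and 5 genes), and the median difference of the members moved to -0.31 in the first and -0.58 in the last; Hlf turned to -0.32 in the first, and Procr and Sox4 to -0.13 and -1.19 in the last. Without 1 array in turn, 0 to 5, 0 to 4 and 0 to 2 members and 29 to 332, 3 to 591 and 36 to 505 genes were called, against 219, 220 and 267 genes with the 11 arrays, and the members' median ran from -0.09 to 0.11, 0.16 to 0.33 and -0.29 to -0.09. In fits to only the 2 groups compared, 0, 0 and 3 members and 93, 72 and 840 genes were called. With the spike-in range as a block, 3, 0 and 0 members were called, with 20 genes for the ACD mutant against MIB control and 0 for INV16 against the ACD mutant, where the median moved to -0.05 and Sox4 turned to -0.56. Within a range, 0 members and 30 genes were called in INV16 and 0 members and 42 genes in the ACD mutant, each against MIB control; no range held both INV16 and the ACD mutant without INV16 replicate 4, so that comparison has no such value. The mean of a gene's probe sets gave 4 members in INV16 against MIB control, and 2 members and 173 genes in INV16 against the ACD mutant. Each probe set tested alone gave 4 members in the first and 2 in the last, and 356 genes for the ACD mutant against MIB control. Without a filter 1 member was called in the first. The cause was not tested. The 12-array fit adds 1 array that stands apart, and several others have fewer arrays or other genes tested. Where the genes called in the same fit are not given, here or below, a count of members cannot be read as a result about the members.

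No pairing of samples by replicate number was seen: same-numbered INV16 and ACD mutant arrays had deviations from their group means correlated at -0.16, -0.18 and -0.31, and INV16 and MIB control replicate 3 at -0.33. Arrays of these 2 fusions with unlike numbers correlated at -0.23 to 0.42. Deviations from the mean of 3 arrays are tied to one another, so these values cannot exclude a pairing. A replicate block gave 0, 1 and 2 members called in the 3 comparisons, with 1 gene and 24 genes in those with MIB control. Quantile normalisation, the stricter filter and eBayes with trend and robust options left every count of members called as it was.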
